A study of Mus musculus with 2 samples.

Results

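Long non-coding RNA (lncRNA) promoter peaks were the ATAC-seq peaks centred within 2 kb of a transcript start of a gene typed lincRNA, antisense or processed_transcript in GENCODE vM1, and more than 2 kb from every transcript start of a protein-coding gene. Only the 19 autosomes were used. By this rule 954 of the 69440 autosomal peaks of wild-type (WT) mouse embryonic stem cells (ESCs) were lncRNA promoter peaks, and 748 of the 59218 autosomal peaks of Uhrf1 knockout (KO) ESCs.

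Many lncRNAs are transcribed by RNA polymerase II from promoters of their own, and such promoters can be found as accessible chromatin. ATAC-seq maps accessible chromatin with the Tn5 transposase, which inserts sequencing adapters preferentially where DNA is not wrapped by nucleosomes. Uhrf1 recognises hemimethylated DNA and recruits Dnmt1, so that DNA methylation is copied at replication.

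The study asked how Uhrf1 acts on chromatin in ESCs, and its ATAC-seq libraries compare accessible sites in cells with and without the protein. E14 is a male ESC line. The E14 WT and Uhrf1 KO ESCs came from another laboratory and were kept undifferentiated in serum with leukemia inhibitory factor, on gelatin or on plates coated with mouse embryonic fibroblasts. About 50000 cells were lysed for transposition, and each genotype was represented by 1 library. A KO line differs from its WT line by its passage and cloning history as well as by its genotype, and with 1 library of each these cannot be told apart. The comparisons below are therefore between 2 libraries, not between conditions.

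The data were lists of peak positions on mouse genome build mm9, 71914 peaks for WT and 61640 for Uhrf1 KO when the sex chromosomes were counted. Nearly all peaks had the same width, about 100 bp. The lists held no read counts, so the depth behind a peak was unknown and a missing peak was not shown to be closed chromatin. There were no replicates, and lncRNA promoter peaks are not replicates of one another. Neighbouring peaks often belong to the same accessible site and are not independent. The 95% intervals given here are exact Poisson intervals for counts and exact binomial (Clopper-Pearson) intervals for shares, and they cover counting error only.

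The ESC label was checked against peaks within 2 kb of the starts of marker genes. Of 10 pluripotency markers, 9 were in the annotation under the name listed, and Tfcp2l1 was not. All 9 had a peak in WT and 8 had one in Uhrf1 KO. Pou5f1, which encodes Oct4, had 7 WT and 4 KO peaks, Nanog had 2 and 1, and Sox2 had 2 and 4. Dppa4 had 1 WT peak and no KO peak. Of 10 fibroblast genes, chosen because feeder cells may have been present, 6 had a peak in WT and 5 in Uhrf1 KO. Col1a1 had 4 WT and 2 KO peaks and Prrx1 had 3 and 2, whereas Col3a1, Col6a3, Twist2 and Postn had 0 in both lists. Among all 21418 autosomal protein-coding genes, 13171 had a WT peak and 12016 a KO peak, with each peak counted at its nearest start. The fibroblast counts were near those of any genes, so the check is a weak one. An open promoter does not show that a gene is expressed, and what feeder cells contributed to the peaks was not tested. Of 10 markers of differentiated cells, 3 had a peak in WT and 3 in KO. Gata1 had 1 peak in each list and Neurod1 had 1 WT and 2 KO peaks, whereas Myod1 had 3 WT peaks and no KO peak and Myh6 had 1 KO peak and no WT peak.

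The number of lncRNA promoter peaks was compared first. The count was 954 in WT (95% interval 894 to 1017) and 748 in Uhrf1 KO (695 to 804), a KO to WT ratio of 0.784. All autosomal peaks gave a ratio of 0.853, so the KO list was shorter as a whole. Peaks within 2 kb of protein-coding starts numbered 35290 and 26881, a ratio of 0.762. Distal peaks, those far from both kinds of start, numbered 33196 and 31589, a ratio of 0.952. Converted from the binomial interval, the limits of the lncRNA ratio were 0.712 to 0.864. They took in the ratios of protein-coding promoter peaks and of all autosomal peaks, but not that of distal peaks. The lncRNA ratio was thus not set apart from that of all peaks. Peaks at lincRNA genes numbered 512 in WT and 405 in KO, a ratio of 0.791. Peaks at processed_transcript genes numbered 442 and 343, a ratio of 0.776. Both kinds of lncRNA gene gave similar ratios. Peaks whose nearest start belonged to a transcript typed antisense numbered 210 and 146, a ratio of 0.695.

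The autosomes were also compared one by one. Chr11 carried 120 lncRNA promoter peaks in WT and 97 in KO, and chr4 carried 107 and 77. Chr2 carried 106 and 103, a ratio of 0.972, beside 0.848 for all peaks on chr2. Chr10 carried 42 and 25, a ratio of 0.595, beside 0.904 for all peaks on chr10. Chr8 was looked at separately because all of its peaks together fell from 4792 in WT to 3072 in KO, a ratio of 0.641. Whether the lines differed in their number of chr8 copies was not tested. Its lncRNA promoter peaks numbered 46 and 35, a ratio of 0.761. Without chr8 there were 908 WT and 713 KO lncRNA promoter peaks, a ratio of 0.785, almost the ratio with chr8.

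To ask which lncRNA promoter peaks were found in both libraries, a peak was called shared when the other list held a peak no more than 100 bp away, and WT-only or KO-only otherwise. Of the 954 WT peaks, 626 were shared and 328 were WT-only, 34.4% (31.4% to 37.5%). The WT-only share was 32.2% among all autosomal peaks and 25.7% among protein-coding promoter peaks. The share among lncRNA promoter peaks was near that of all peaks, and is not a result about lncRNAs. Of the 748 KO peaks, 608 were shared and 140 were KO-only, 18.7% (16% to 21.7%). The KO-only share was 24.4% among all autosomal peaks and 8.91% among protein-coding promoter peaks, so lncRNA promoters lay between these groups. Distal peaks gave 39.0% WT-only and 37.7% KO-only. Under this rule the shared lncRNA promoter peaks made up the larger part of each list. That did not hold in WT when 50% of both peaks had to be shared, which left 53.1% WT-only and 40.1% KO-only. The partner was itself a lncRNA promoter peak for 623 of the 626 shared WT peaks and for 603 of the 608 shared KO peaks. The centres of partners lay a median of 23 bp apart, and 7 shared peaks had the same position in both lists.

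The kinds of lncRNA gene differed somewhat. At lincRNA genes 31.8% of WT peaks were WT-only and 15.1% of KO peaks were KO-only. At processed_transcript genes these shares were 37.3% and 23.0%. At starts of antisense transcripts they were 44.3% and 23.3%. Without chr8 the shares for all lncRNA promoter peaks were 34.3% and 19.2%, against 31.3% and 24.8% for all peaks. On chr8 itself 17 of 46 WT peaks (37.0%) were WT-only and 3 of 35 KO peaks (8.57%) were KO-only. All peaks on chr8 were WT-only in 43.6% and KO-only in 17.1% of cases.

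Peaks that met the lncRNA rule but also had a protein-coding start within 2 kb were left out, 2847 in WT and 2126 in KO. Of these 25.7% were WT-only and 7.57% were KO-only, close to the shares of protein-coding promoters. The lncRNA promoter peaks nearest to the distance limits were few bp from falling on the other side. The farthest WT peak kept lay 1987 bp from a start of 4932441J04Rik, and the nearest one left out lay 2006 bp from a start of A330035P11Rik. In KO the corresponding peaks lay 1988 bp from a start of Gm12249 and 2001 bp from a start of Malat1. On the protein-coding side a WT peak of A930015D03Rik was kept at 2019 bp from the nearest protein-coding start, and a WT peak of Gm16230 was left out at 1996 bp. In KO a peak of Gm17473 was kept at 2005 bp, and a peak of A830082K12Rik was left out at 1996 bp.

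Base composition differed in its medians between groups of lncRNA promoter peaks, whose ranges overlapped. Over the central 200 bp, the median GC content was 60% in WT and 58.5% in KO. Protein-coding promoter peaks had medians of 66.5% and 65%, and distal peaks 53.5% and 51%. The lncRNA promoters were thus between the 2 groups in both libraries. Shared WT peaks had a median GC content of 61% and 10 CpG sites, and WT-only peaks had 58.25% and 8. Shared KO peaks had 60% and 9 CpG sites, and KO-only peaks 53.5% and 4. The CpG observed to expected ratio was 0.557 in shared KO peaks and 0.312 in KO-only peaks. KO-only lncRNA promoter peaks were therefore poor in CpG sites beside the other lncRNA promoter peaks. KO-only protein-coding promoter peaks had a median GC content of 56.5%, and KO-only distal peaks 48.5%. A lower GC content of KO-only peaks was thus not particular to lncRNAs. In WT the medians were 66.5% in shared and 66% in WT-only protein-coding promoter peaks, and 53% and 54% in distal peaks.

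The shares were then taken within classes of GC content. From 40% to 50% GC, 40 of 83 WT lncRNA promoter peaks (48.2%) were WT-only, with an interval of 37.1% to 59.4%, beside 30.2% of protein-coding promoter peaks and 35.01% of distal peaks in that class. From 50% to 60% GC, 144 of 389 (37.0%) were WT-only, beside 29.1% and 42.2%. From 60% to 70% GC, 102 of 339 (30.1%) were, beside 23.5% and 41.1%. At 70% or more, 40 of 140 (28.6%) were, beside 26.01% and 35.02%. The KO lncRNA promoter peaks spanned a wider range. From 40% to 50% GC, 34 of 84 (40.5%) were KO-only, then 85 of 327 (26%) from 50% to 60%, 20 of 243 (8.23%) from 60% to 70%, and 1 of 93 (1.08%) at 70% or more. Protein-coding promoter peaks gave 40.8%, 16.8%, 5.39% and 3.15% in the same KO classes, and distal peaks 48.7%, 33.3%, 12.4% and 3.83%. Weighting the other autosomal peaks to the GC contents of the lncRNA promoter peaks gave expected shares of 32.7% WT-only and 20.1% KO-only. The 34.4% and 18.7% counted were close to these over all classes, although the WT-only share from 40% to 50% GC was above those of both other groups. Weighting protein-coding promoter peaks in the same way gave 26.8% and 14.8%, both below the shares counted at lncRNAs.

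Position around the start was compared next. The median distance of a lncRNA promoter peak to the nearest lncRNA start was 256 bp in WT and 240.5 bp in KO, against 137 bp and 118 bp for protein-coding promoter peaks and their starts. Within 250 bp of the start lay 49.5% of WT and 50.9% of KO lncRNA promoter peaks. Upstream of the start lay 540 WT peaks (56.6%) and 461 KO peaks (61.6%). The WT-only share of lncRNA promoter peaks was 26.5% up to 250 bp from the start and 47.4% beyond 1000 bp. The KO-only share was 14.2% up to 250 bp and 28.0% beyond 1000 bp. Protein-coding promoter peaks showed the same direction, with WT-only shares of 19% near the start and 39.4% far from it, and KO-only shares of 4.61% and 24.8%. At lncRNA starts, as at protein-coding starts, shared peaks lay closer to the start than peaks of 1 list.

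By annotation, 235 of the WT lncRNA promoter peaks (24.6%) lay in exons of lncRNA genes, 255 (26.7%) in their introns and 355 (37.2%) outside genes of these types. A further 74 (7.76%) lay in introns and 35 (3.67%) in exons of protein-coding genes. In KO the corresponding numbers were 166, 206, 296, 61 and 19. WT-only peaks made up 32.3% of those in lncRNA exons, 39.2% of those in lncRNA introns and 27.6% of those outside genes. In protein-coding exons 21 of 35 (60%) and in protein-coding introns 33 of 74 (44.6%) were WT-only, the highest shares of the 5 locations. KO-only peaks made up 13.3%, 23.8% and 16.6% of the first groups, 15.8% of the 19 peaks in protein-coding exons and 27.9% of the 61 in protein-coding introns. Among all autosomal peaks, wherever they lay, 32.2% were WT-only and 24.4% KO-only. In both libraries the lncRNA introns held a larger share of peaks without a partner than the lncRNA exons. The central 31 bp had more than 1 copy in the genome for 39 WT lncRNA promoter peaks (4.09%) and 36 KO peaks (4.81%), compared with 14% of distal and 1.90% of protein-coding promoter peaks in WT.

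Each deposited peak name carried a number, whose meaning is not given in the sources used here. Divided by the largest number of its chromosome and list, it gave a relative name number from near 0 to 1. WT-only peaks made up 2.23% of the WT lncRNA promoter peaks with relative name numbers in the lowest 20% of the range from 0 to 1, and 61.7% in the highest 20% of that range. KO-only peaks made up 2.84% and 48.8%. Among all autosomal peaks the WT-only share rose from 1.07% to 64% and the KO-only share from 1.83% to 49.9%. A low number thus went with having a partner, at lncRNA promoters as elsewhere. The lncRNA promoter peaks with the lowest numbers belonged to 2610005L07Rik, Pisd-ps1, Pisd-ps2 and 6820431F20Rik in both lists, and all were shared. Pisd-ps1 and Pisd-ps2 are pseudogene copies of the gene for phosphatidylserine decarboxylase.

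Genes were compared after peaks. The annotation held 3669 autosomal lncRNA genes, 1232 typed lincRNA and 2437 typed processed_transcript. A lncRNA promoter peak was found at 635 of them (17.3%), 301 lincRNA and 334 processed_transcript genes. Of 21418 protein-coding genes, 13669 (63.8%) had a peak within 2 kb of a start. Each peak was counted only for the gene of its nearest protein-coding start. Many lncRNA starts lay beside protein-coding starts and could hardly be counted, and of the 2479 lncRNA genes with a start more than 2 kb from these, 607 (24.5%) had a lncRNA promoter peak. Of the 635 genes, 552 had a WT peak and 456 a KO peak. Peaks in both lists were found at 373 genes, 58.7% (54.8% to 62.6%). Peaks in WT only were found at 179 genes, 28.2% (24.7% to 31.9%), and in KO only at 83 genes, 13.1% (10.5% to 15.9%). With the WT list shortened to the length of the KO list by lowest name numbers, these were 137 and 102 genes. Among protein-coding genes with a peak, 12.1% had peaks in WT only and 3.64% in KO only.

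Most lncRNA genes with peaks in 1 list had 1 peak, as was the case for 147 of the 179 WT genes and 72 of the 83 KO genes. Of the lncRNA genes with 1 WT peak, 43.8% had no KO peak, against 19.8% of those with 2 WT peaks and 9.0% of those with 3 or more. Protein-coding genes gave 25.1%, 11.2% and 3.88%. Of the lncRNA genes with 1 KO peak, 26.3% had no WT peak, against 5.98% of those with 2 KO peaks and 6.15% of those with 3 or more. Protein-coding genes gave 8.89%, 1.74% and 0.263%. Among genes with 1 and with 2 peaks, the lncRNA genes had larger shares without a peak in the other list than the protein-coding genes. The kinds of gene were not counted alike. For both kinds a peak went to the gene of its nearest start. Only lncRNA genes lost the peaks within 2 kb of a start of the other kind. Of the 373 lncRNA genes with peaks in both lists, 186 had as many in each, 117 had more in WT and 70 had more in KO.

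The lncRNA gene with the most peaks was Dleu2 (ENSMUSG00000087313.2, chr14:62238318-62301162, minus strand), a lincRNA that hosts miR-15a and miR-16-1. It had 12 WT and 7 KO peaks, and 6 of the WT peaks were WT-only. The processed_transcript 2410080I02Rik (chr19:23209390-23210207) had 9 WT and 4 KO peaks, 4 of them WT-only. Gm17547 (chr13:83863047-83869187) had 7 and 6, Gm17395 (chr6:128793804-128796977) had 6 and 6, and Gm15287 (chr13:112515725-112525332) had 7 and 3. Atp10d (chr5:72594568-72690014), which shares its name with a phospholipid transporter and is typed lincRNA in this annotation, had 7 WT and 5 KO peaks, all shared.

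Among genes with peaks in WT only, Pdf, 4930412L05Rik and Gm17277 had the most, with 4 each. Pdf (chr8:109568598-109572514, minus strand) is named after a mitochondrial peptide deformylase and is typed processed_transcript, and the KO peak nearest to its WT peaks was 8086 bp away. Gm17277 (chr10:88798305-88807507, minus strand) is a lincRNA of unknown function, and its nearest KO peak was 50566 bp away. Gm14114, Gm15998 and D430018E03Rik had 3 WT peaks each and no KO peak. The 4 WT peaks of Pdf, like those of Gm17277, were neighbours around a start, so neither gene gives 4 separate observations.

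Among genes with peaks in KO only, 4631405K08Rik, Gm13447, E530001K10Rik and 9330159M07Rik had the most, with 3 each. The lincRNA 4631405K08Rik (chr1:195333432-195335997, minus strand) had its 3 KO peaks between 195336331 and 195336554, upstream of the start, and the nearest WT peak was 3800 bp from them. Their relative name numbers ran from 0.164 to 0.195, among the lowest of all KO-only lncRNA promoter peaks, a comparison made after the values were seen. The 3 KO peaks of 9330159M07Rik (chr9:88736636-88753691) were all shared. A neighbouring WT peak at chr9:88753813-88753913 was assigned to Gm17694, whose start was nearer, and another at chr9:88753398-88753498 was left out because it lay 1940 bp from a start of the protein-coding gene Gm9775. This gene was thus KO only by the assignment of peaks to starts and by the distance rule for protein-coding starts. The central 31 bp of each of its 3 KO peaks had 3 copies in the genome. Gm12951 and 4930578M01Rik had 2 KO peaks each, all without a partner. When a gene was counted only if none of its peaks had a partner, 177 genes were left in WT only and 75 in KO only. This stricter count was chosen after the data were seen.

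Known lncRNAs were read as 5 lists of symbols, written from general knowledge. The 17 imprinted lncRNA symbols matched 9 genes of the annotation, of which 4 had a lncRNA promoter peak. Meg3 (ENSMUSG00000021268.10, chr12:110779211-110809936, plus strand), transcribed from the maternal chromosome of the Dlk1-Dio3 domain, had 6 WT and 5 KO peaks. All were shared, and the peak at chr12:110781201-110781301 had the same position in both lists. Nespas, an antisense transcript of the Gnas locus, had 1 WT and 2 KO peaks, and the KO peak at chr2:174120158-174120258 had no partner. Airn, whose paternal transcription silences Igf2r, had no WT peak and 1 KO peak at chr17:12934088-12934188. This peak lay 39 bp upstream of the Airn start within an Igf2r intron, its relative name number was 0.203, and the nearest WT peak was 28203 bp away. H19, a maternally expressed RNA beside Igf2, had no WT peak and 1 KO peak at chr7:149764058-149764158, 60 bp upstream of its start. That peak had a relative name number of 0.997, near the end of its list, and the nearest WT peak was 32931 bp away. Mirg, Nctc1 and Rian had no peak near a start. Dio3os, with 1 WT and 1 KO peak, and Igf2as, with 1 WT peak and no KO peak, had peaks within 2 kb of a start that did not count as lncRNA promoter peaks of theirs. None of the 7 WT peaks at imprinted lncRNAs was WT-only, and 3 of the 9 KO peaks were KO-only, too few to be set beside the 32.2% and 24.4% among all autosomal peaks. The allele on which a peak lay was not measured.

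The 42 lncRNA symbols tied to pluripotency matched 18 genes of the annotation, of which 9 had a lncRNA promoter peak. Platr21 (C330013F16Rik) and Platr24 (Kis2) are on the X and could not count. Peaks in both lists were found at 5 of these, in WT only at 2 and in KO only at 2. Tunar (annotated as 2810011L19Rik), which is needed for ESC pluripotency, had 3 peaks in each list. Platr4 (C430002E04Rik), of a set of transcripts that fall when ESCs differentiate, had 2 WT and 4 KO peaks, and Platr22 (Gm16880) had 2 and 2. Platr18 (Gm11019) had 1 and 1. Cyrano (1700020I14Rik), which triggers the decay of miR-7, had 2 and 1. Platr7 (C330046G13Rik) had 3 WT peaks and no KO peak, all of them upstream of its start, and its nearest KO peak was 20578 bp away. Sox2ot, whose transcripts span the Sox2 gene, had 1 WT peak and no KO peak, with the nearest KO peak 12218 bp away. Platr20 (5133400J02Rik) had no WT peak and 2 KO peaks, and Platr8 (Gm13939) had none and 1. The list as a whole had 14 WT and 14 KO peaks, with 4 in each lacking a partner. These counts are too few to be set apart from the 32.2% WT-only and 24.4% KO-only among all autosomal peaks.

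The 46 developmental lncRNA symbols matched 26 genes of the annotation, of which 6 had a lncRNA promoter peak. Six3os1, transcribed beside the eye and forebrain gene Six3, had 4 WT and 2 KO peaks. Dlx6os1, from an enhancer region between Dlx5 and Dlx6, had 1 and 1. Hoxb3os, Hoxaas2 (5730446D14Rik) and Nkx2-2os (Nkx2-2as) had 1 WT peak each and no KO peak, and Hoxaas3 (2700086A05Rik) had 1 KO peak and no WT peak, counting lncRNA promoter peaks alone. Within 2 kb of their starts Nkx2-2os also had 1 KO peak and Hoxaas3 2 WT peaks that did not count. Hotair (Gm16258) and Rmst had no peak near a start, and Fendrr (1110050K14Rik) had 3 WT peaks and no KO peak that did not count. Of the developmental genes without a lncRNA promoter peak, 15 had a peak within 2 kb of a start that did not count, because of a protein-coding start or a nearer lncRNA start. The developmental lncRNAs had 8 WT and 4 KO peaks, too few to compare as a group.

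The 15 nuclear or housekeeping lncRNA symbols matched 8 genes of the annotation, of which 6 had lncRNA promoter peaks, all of them in both lists. Malat1, abundant in nuclear speckles, had 3 WT and 3 KO peaks. Neat1, the scaffold of paraspeckles, had 3 and 5, with 1 KO-only peak at chr19:5845402-5845502. Dancr (2700023E23Rik), which holds back differentiation in several cell types, had 3 and 2, and Pvt1, next to Myc, had 1 and 2. Tug1 had no lncRNA promoter peak, but 5 WT and 5 KO peaks lay within 2 kb of its starts without counting. The 29 symbols of small RNA host genes matched 17 genes of the annotation, of which 10 had lncRNA promoter peaks, 9 in both lists. Mir17hg, host of the miR-17-92 cluster, had 4 WT and 3 KO peaks. Snhg5, which hosts small nucleolar RNAs, had 3 and 2. Mir124a-1hg (A930011O12Rik) had 1 and 2, and Mir9-3hg (AI854517) had 2 and 1. Snhg4, Snhg12, Snhg15 (Gm11974), Snhg17 and Snhg20 had 1 peak in each list. Mir100hg (D230004N17Rik), with 1 WT peak, was the only host gene with lncRNA promoter peaks in 1 list, although Snhg7 had 1 WT peak and no KO peak that did not count. Among all lncRNA genes with a peak 58.7% had peaks in both lists, and these lists are short. Of the 24 WT peaks at nuclear or housekeeping lncRNAs, 6 were WT-only, all at Dleu2, and 2 of the 20 KO peaks were KO-only, at Neat1 and Pvt1. Of the 16 WT and 13 KO peaks at host genes, 3 were WT-only, at Mir17hg, Mir9-3hg and Mir100hg, and 2 were KO-only, at Mir17hg and Mir124a-1hg. Such numbers are too small to be set apart from the 32.2% and 24.4% among all autosomal peaks.

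Motifs were searched as fixed letters on both strands of the central 200 bp, and were chosen after the peak lists had been seen. The CTCF letters can contain CCAAT, as in the match at Nespas, so these counts overlap, and a match is a description of sequence, not of binding. The octamer ATGCAAAT, bound by Oct4 and other POU proteins, was found in 2.1% of WT and 2.67% of KO lncRNA promoter peaks, beside 1.57% and 1.94% of all autosomal peaks. It occurred in 18 of 626 shared WT peaks (2.88%) and in 2 of 328 WT-only peaks (0.610%, 0.0739% to 2.19%), beside 1.72% of shared and 1.25% of WT-only peaks on all autosomes. In KO it occurred in 2.63% of shared and in 4 of 140 KO-only lncRNA promoter peaks (2.86%), beside 1.77% and 2.47% on all autosomes. The 20 WT peaks with an octamer belonged to 17 lncRNA genes and the 20 KO peaks to 19, with 14 genes in common. The KO-only ones included peaks at Gm11795, Gm11528 and Gm20546, and the WT-only ones at Gm11916 and C430039J16Rik.

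The GC box GGGCGG was found in 38.5% of WT and 41.3% of KO lncRNA promoter peaks, beside 38.6% and 34.9% of all autosomal peaks and 58.0% and 58.8% of protein-coding promoter peaks. It was in 43.3% of shared and 29.3% of WT-only WT peaks, and in 45.6% of shared and 22.9% of KO-only KO peaks. Among all autosomal peaks it was in 43.1% of shared and 29.2% of WT-only WT peaks, and in 42.5% and 11.2% of the corresponding KO peaks. The box CCAAT was found in 23.9% and 30.1% of lncRNA promoter peaks, beside 24.5% and 28.3% of all peaks. Shared WT peaks held it in 29.1% of cases (25.5% to 32.8%), and WT-only ones in 14% (10.5% to 18.3%). Among all WT peaks it was in 27.2% of the shared and 18.8% of the WT-only. In KO it was in 31.6% of shared and 23.6% of KO-only lncRNA promoter peaks, while all KO peaks gave 28.03% and 28.98%. The TATA letters TATAAA were in 3.14% of WT and 3.88% of KO lncRNA promoter peaks, beside 3.97% and 5.33% of all peaks. In WT they were in 2.40% of shared and 4.57% of WT-only lncRNA promoter peaks, with intervals that overlap, beside 4.03% and 3.84% among all WT peaks. In KO they were in 3.78% of shared and 4.29% of KO-only lncRNA promoter peaks, beside 4.23% and 8.73% among all KO peaks. The E-box CACGTG, its own reverse complement, was in 5.24% and 5.88%, beside 5.44% and 5.36%. In WT it was in 6.71% of shared (4.88% to 8.96%) and 2.44% of WT-only lncRNA promoter peaks (1.06% to 4.75%). Among all WT peaks it was in 5.92% and 4.43%. In KO it was in 5.92% of shared and 5.71% of KO-only lncRNA promoter peaks, beside 5.88% and 3.74% of all KO peaks. The ETS letters CCGGAAGT were in 2.1% and 2.94%, beside 2.19% and 2.25%. The YY1 letters AAGATGGC were in 1.15% and 1.20%, beside 2.73% and 2.93%. The Esrrb letters TCAAGGTCA were in 0.314% and 0.134%, beside 0.299% and 0.330%. The CTCF letters, CCA, AG and GGC with 2 bases of any kind between each, were in 6.39% and 5.35%, beside 6.96% and 5.63%. Unlike the GC box and CCAAT, but like the TATA letters, the CTCF letters were in fewer shared than WT-only lncRNA promoter peaks. These shares were 5.11% and 8.84% with overlapping intervals, beside 5.63% and 9.76% among all WT peaks. In KO they were in 5.43% of shared and 5% of KO-only lncRNA promoter peaks, beside 5.65% and 5.6% of all KO peaks. The NRF1 letters, 10 bases shown in capitals in the sequence of Meg3 and also their own reverse complement, were in 0.734% and 0.936%, beside 0.667% and 0.548%. Of these motifs the YY1 letters were the ones rarer at lncRNA promoters than among all peaks in both libraries by the widest margin. The NRF1 letters were in 7 lncRNA promoter peaks of each list, all shared, at the same 5 genes (1810010K12Rik, Spata5l1, 8030453O22Rik, Gm15608 and Meg3). Of all autosomal peaks with these letters, 374 of 462 in WT and 316 of 324 in KO were shared, so this is not particular to lncRNAs.

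The sequences of some lncRNA promoter peaks are given on build mm9, each as the whole peak on the strand of its lncRNA, and were likewise chosen after the peak lists had been seen. Capitals mark CG in this set, shown as examples of CpG content among WT-only, KO-only and shared peaks. The peaks of Gm17277 and Mir17hg were those of highest GC content at their gene. The others were those of lowest relative name number at their gene, so the CG counts do not compare the groups. The KO-only peak of Airn (chr17:12934088-12934188, plus strand, in an Igf2r intron) had 1 CG. The KO-only peak of 4631405K08Rik (chr1:195336395-195336495, minus strand, outside genes) had 2. The WT-only peak of Gm17277 (chr10:88807477-88807577, minus strand, centred 20 bp upstream of its start, outside genes) had 13. The shared WT peak of Mir17hg (chr14:115441049-115441149, plus strand, outside genes) had 20. The shared WT peak of Tunar (2810011L19Rik, chr12:106574855-106574955, plus strand, in a lncRNA exon), at the same position in both lists, had 10.
Airn: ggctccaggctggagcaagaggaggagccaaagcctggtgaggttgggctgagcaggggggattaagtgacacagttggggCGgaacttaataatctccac
4631405K08Rik: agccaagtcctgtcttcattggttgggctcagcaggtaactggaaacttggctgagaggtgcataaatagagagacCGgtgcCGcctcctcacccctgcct
Gm17277: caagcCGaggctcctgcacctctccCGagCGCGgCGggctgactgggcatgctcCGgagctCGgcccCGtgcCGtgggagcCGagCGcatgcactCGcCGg
Mir17hg: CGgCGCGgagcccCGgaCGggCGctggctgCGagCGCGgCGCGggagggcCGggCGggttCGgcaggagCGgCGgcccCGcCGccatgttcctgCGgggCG
2810011L19Rik: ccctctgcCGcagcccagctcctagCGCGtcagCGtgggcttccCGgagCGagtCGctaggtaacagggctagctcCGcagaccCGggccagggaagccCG

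Capitals mark the octamer or its reverse complement in 3 further lncRNA promoter peaks on mm9, shown so that shared and KO-only matches can be read side by side. The WT peak of 4833407H14Rik (chr19:53535003-53535103, plus strand, in a lncRNA intron) was at the same position in both lists. The KO peak of Gm12148 (chr11:43198663-43198763, plus strand, outside genes) was shared. The KO peak of Gm11795 (chr4:7686598-7686698, plus strand, outside genes) was KO-only.
4833407H14Rik: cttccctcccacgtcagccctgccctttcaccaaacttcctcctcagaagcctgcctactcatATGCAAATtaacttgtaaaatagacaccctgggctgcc
Gm12148: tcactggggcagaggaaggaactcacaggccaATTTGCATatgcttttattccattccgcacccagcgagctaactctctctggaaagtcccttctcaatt
Gm11795: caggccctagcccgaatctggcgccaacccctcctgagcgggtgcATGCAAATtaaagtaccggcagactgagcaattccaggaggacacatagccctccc

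Capitals mark the NRF1 letters in the WT peaks of 1810010K12Rik (chr2:19373952-19374052, plus strand, in a lncRNA exon) and Meg3 (chr12:110781261-110781361, plus strand, in a lncRNA exon), and the CTCF letters in the WT peak of Nespas (chr2:174120933-174121033, minus strand, in an intron of a protein-coding gene). The 3 peaks on mm9 were shared, and are shown as examples of these letters at imprinted and other lncRNAs. Binding and methylation were not measured in these libraries.
1810010K12Rik: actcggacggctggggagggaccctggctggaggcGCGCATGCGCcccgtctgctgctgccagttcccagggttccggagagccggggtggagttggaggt
Meg3: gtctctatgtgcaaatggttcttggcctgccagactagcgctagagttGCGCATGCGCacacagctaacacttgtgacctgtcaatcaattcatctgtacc
Nespas: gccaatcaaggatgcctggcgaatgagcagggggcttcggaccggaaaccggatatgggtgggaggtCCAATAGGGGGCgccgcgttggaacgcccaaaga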

How the data were processed

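The deposited data were BED lists of peak positions for 1 WT and 1 Uhrf1 KO ATAC-seq library on mm9, made by the authors and used as deposited. According to the submitters' processing notes, reads were mapped with Bowtie2 2.1.0, and HOMER 4.9.1 was used. Per the methods, fragments shorter than 150 bp were used. The threshold for calling a peak and any shift for Tn5 are not given in the sources used here. The deposited score of the authors' lists was 1 for every peak and was not used.

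Transcript starts came from GENCODE vM1, on the same build. That release types no gene as antisense, so the rule took in 0 genes of that type, and antisense was available only as a type of transcripts. A peak was assigned to the gene of its nearest lncRNA start. For the counts over all protein-coding genes it was assigned to the gene of its nearest protein-coding start. Sequence was read over the central 200 bp, and exact copies of the central 31 bp were counted in the whole genome. Intervals at 95% were exact Poisson for counts and Clopper-Pearson for shares. Expected shares were means over bins of 5 percentage points of GC content. The partner, assignment and promoter rules were tested on simulated peaks with planted answers and gave no wrong call.

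Genes were named by rule: the 8 with the most peaks over both lists, the 6 with the most peaks in each library alone, the 5 peaks per list with the lowest relative name numbers, and up to 6 genes per list of known lncRNAs, those with the most peaks. Other genes named from the lists were chosen after their values were seen. The lists of imprinted, pluripotency, developmental, nuclear or housekeeping, and host lncRNAs held 149 symbols with repeats, some of them synonyms of one another, and matched 78 genes, also with repeats, by symbol or by RefSeq synonym. RefSeq positions were on another build and were not used. Marker lists covered pluripotency, fibroblasts and differentiated cells. The promoter rule and the lists were chosen with earlier results of these data known.

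Alternatives tried were other rules for a partner, merged peaks, the lower 50% of name numbers, equal list lengths, a 1 kb window, lincRNA genes only, leaving out chr8, other GC measures and other references. Python 3.11.15, numpy 2.4.6, pandas 2.3.3, scipy 1.17.1, pysam 0.24.0, numba 0.67.0 and samtools 1.23.1 were used.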

Additional observations from a re-analysis of the deposited data

How the results depend on the processing

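No paired analysis was possible because there was 1 library of each genotype. Of 54 values under alternatives, 36 stayed within the limits used and 18 moved past them. The limits were the binomial interval for shares and, converted, for the ratio, 1.5 times for counts of genes, and the order-statistic interval of the median for GC content. The KO to WT ratio of lncRNA promoter peaks was 0.917 when the longer list was shortened to as many peaks as the other by lowest name numbers, a change that removes only WT peaks. A stricter rule for a partner leaves more peaks without one by construction. The WT-only share was 40.04% and the KO-only share 24.6% when at least 1 bp had to be shared, beside 38.2% and 29.2% of all autosomal peaks, and 53.1% and 40.1% when 50% of both peaks had to be, beside 50.4% and 42.3%. Among the lower 50% of name numbers the shares fell to 11.3% and 4.37%, beside 10.9% and 8.53% of all autosomal peaks. Merging peaks within 100 bp gave a WT-only share of 38.7%, beside 35.3%, and a window of 1 kb gave 31.2% with a median GC content of 60.75%; the cause was not tested. With lincRNA genes only, the KO-only share was 14.9% and the median GC content 61.5% in WT and 60.5% in KO; the cause was not tested. That choice left 74 genes with peaks in WT only and 32 in KO only, since fewer genes were counted. Over the whole peak the WT median GC content was 61.4%, from a narrower stretch. With protein-coding promoter peaks as the reference for GC content, the expected shares were 26.8% and 14.8%, since these peaks have fewer without a partner. Leaving out chr8, leaving out peaks with repeated central sequence, and keeping 5 kb from protein-coding starts left every result they were tried on within the limits. The added gene count, chosen after seeing the data, did so too. A weak site can be missed by either list, and without read counts such a site cannot be told from a closed one.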

Other observations

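The X chromosome was outside the rule. On it, 62 WT peaks at lncRNA starts included 31 without a KO partner within 100 bp, 50% (37.0% to 63.0%), beside 28.4% of all 2403 WT peaks on the X. Of 39 KO peaks at lncRNA starts on the X, 6 had no WT partner, 15.4% (5.86% to 30.5%), beside 30.3% of all 2341 KO peaks there. These peaks were looked at after the autosomal results were known. Within 2 kb of the starts of Xist and Tsix neither list had a peak. Ftx (B230206F22Rik) had 3 WT peaks, all without a partner, and no KO peak, and Jpx (Enox) had no WT peak and 1 KO peak, without a partner.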
